A study of Danio rerio with 2 samples.

Results

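The genes described here are 10 heat shock genes of the cytosol, chosen by name from the 34326 genes of a table that compares rraga mutant with control cells. All 10 names were found, and each had a fold change and a p-value. They comprise the stress-inducible HSP70 genes hsp70l, hsp70.1, hsp70.2 and hsp70.3, the constitutively expressed hspa8 and hsp90ab1, and hsp90aa1.2, dnajb1b, hspb1 and hsf1. The cells were sorted by flow cytometry for GFP driven by Cldnk from zebrafish of the TL (Tupfel long fin) strain at 5 days post fertilization, and were either wild type or rraga mutant. The mutant allele is not named in the labels. RagA, the product of rraga, is a small GTPase that acts at the lysosome surface. The claudin k promoter is known to be active in oligodendrocytes and also in Schwann cells. Each genotype has 1 record, which merges 2 independent biological replicates per the labels, and the values used here are those of the authors' comparison alone. No value per replicate was at hand, so neither the replicate spread nor the sequencing depth is known.

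HSP70 proteins are ATP-driven chaperones that bind exposed hydrophobic stretches of unfolded proteins, and HSP90 proteins hold many kinases and receptors in a state ready for activation. J-domain proteins such as the product of dnajb1b deliver clients to HSP70 and stimulate its ATPase. HSF1 is the transcription factor that, once released from chaperones by protein damage, binds heat shock elements and switches on the inducible genes, whereas hspa8 and hsp90ab1 are transcribed at a high rate in unstressed cells.

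In the rraga mutant all 4 inducible HSP70 genes rose, by 5.14-fold to 8.32-fold in the authors' deposited table, and neither constitutive gene passed the test. Calls rest on the authors' FDR p-value, with 0.05 as the limit. By this rule 4 of the 10 members were called higher and none lower, against 0.132% called higher and 0.0893% called lower among all 25757 genes with a p, and 0.535% called higher among the 5792 genes of level 10 or more. The level is the higher of the genotype means, normalized by the authors in an unnamed unit, and 9 of the 10 members reached 10. Since the members were chosen with earlier results of this table known, their share is a description and not a test. The 4 called members are all HSP70 genes that may share reads, so they may not be 4 separate results. At an unadjusted p under 0.05, 6 of the 10 were higher and none lower, where 4.43% of all genes were higher and 5.24% lower.

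The authors' deposited table gave rraga itself a log2 fold of 0.44 with a level of 33.1 and p = 0.477. No fall of its transcript was thus detected in the group titled mutant, though a modest one could be missed. As the allele is not named, the rraga value checks neither the genotypes nor the direction of the folds. Markers of the sorted population were well detected. Of 16 oligodendrocyte genes 15 were found, with levels from 0.490 (olig1) to 5321 (mbpa). In the mutant 1 of these, mpz, was called lower (log2 fold -2.96) and none higher, with a median log2 fold of -0.69 in the authors' deposited table. At an unadjusted p under 0.05, 3 were lower, mpz, plp1b (-1.89) and cd59 (-1.57), and none higher. Among all genes 5.24% were lower and 4.43% higher at that p. Other tissues were represented too, with levels up to 23441 for genes of pancreas, liver and gut and up to 1561 for erythrocyte genes. The value of 23441, for apoa2, was the highest level of all genes. The share of RNA from each tissue was not measured. Genes of pancreas, liver and gut had a median log2 fold of -0.55 over 21 genes in the authors' deposited table, with none called, and the apolipoprotein genes apoa2 and apoa1b had -0.57 each. Of the 21, 3 were lower at an unadjusted p under 0.05, namely ctrb1 (-1.85), try (-1.39) and prss59.1 (-1.26). By the same rule 1 was higher, fabp1b.1 (1.48). Erythrocyte genes had a median of 1.51 over 14 genes in the authors' deposited table, with 11 higher, 6 of them at an unadjusted p under 0.05, and 1 called, the globin gene hbae1.3 (log2 fold 2.65, FDR p 0.0259). The part of erythrocyte RNA in the HSP70 values was not tested. Photoreceptor markers had a median of -0.24 over 19 genes, of which the cone opsin gene opn1sw1 rose (4.04) and 4 genes fell, gnat1 (-4.64), gngt1 (-5.38), rho (-3.76) and sagb (-4.18), by the authors' deposited table. Macrophage markers had a median of 0.52 over 17 genes with none called, apoeb and ctss2.1 having -0.15 and 1.33, again in the authors' deposited table. At an unadjusted p under 0.05, 4 of the 17 macrophage genes were higher, mfap4 (2.60, level 27.7) among them, and 1 was lower. In a bulk comparison of this kind fewer cells of a type and less RNA per cell cannot be told apart, and which cells carried the heat shock transcripts was not measured.

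Among the inducible genes, hsp70.2 (ENSDARG00000092362; chromosome 3, 25988732 to 25991482, minus strand, GRCz11) was given a level of 75.5 and a log2 fold of 2.96 by the authors' deposited table, where p was 1.50e-08 and the FDR p 9.89e-05. Its p was the smallest of all 34 genes called higher in the mutant and the fifth smallest of the table. hsp70.3 (ENSDARG00000021924; chromosome 3, 25992865 to 25996220, plus strand) had a log2 fold of 3.05, a level of 135.2 and an FDR p of 8.43e-04 in the authors' deposited table. hsp70.1 (ENSDARG00000029688; chromosome 3, 25981914 to 25984688, minus strand) had a log2 fold of 3.06, a level of 22.8 and an FDR p of 0.0395 in the authors' deposited table. All 3 genes encode inducible cytosolic HSP70 and lie within 14.3 kb of each other, and hsp70.2 and hsp70.3 point away from each other with 1382 bases between them.

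The fourth inducible gene, hsp70l, is known from zebrafish as a heat-inducible copy that is also expressed in the embryonic lens. It lies on another chromosome (ENSDARG00000055723; chromosome 8, 4741891 to 4744644, plus strand). Its level was 43.5, its log2 fold 2.36 and its FDR p 0.0413 in the authors' deposited table. It was thus 0.69 below the median log2 fold of the chromosome 3 genes, and those differed among themselves by 0.09 at most.

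Dividing the size of each log2 fold by the normal deviate of its p, as if the test were normal, gives a standard error that is called the implied error here. It was 0.52 for hsp70.2, 0.59 for hsp70.3, 0.76 for hsp70.1 and 0.59 for hsp70l, and for the difference between hsp70.1 and hsp70l, the widest among the 4 genes at 0.69, it was 0.96 if the genes' errors are independent. How alike the sequences of these 4 genes are was not measured here. How reads were divided among HSP70 copies is not given in the sources used here, so the separate values of the 4 genes are uncertain. It is not known whether the implied error carries the spread between replicates.

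Neither constitutive gene differed detectably between the genotypes. Their levels are given as a guide to precision and are not compared with those of other genes, since it is not stated whether the unit is per length. hspa8, which encodes the housekeeping HSP70 often called HSC70 (ENSDARG00000068992; chromosome 10, 29963106 to 29967488, plus strand), had a level of 550.3 and a log2 fold of 0.02 with p = 0.977 in the authors' deposited table. hsp90ab1, which encodes the constitutive HSP90 (ENSDARG00000029150; chromosome 20, 51384538 to 51398620, plus strand), had a level of 353.1 and a log2 fold of -0.11 with p = 0.835 in the authors' deposited table. Both had an FDR adjusted p of 0.9999. The implied 95% interval ran from 0.479-fold to 2.14-fold for hspa8 and from 0.437-fold to 1.95-fold for hsp90ab1. Changes inside these limits are not excluded. At the implied errors, a call would have needed 4.51-fold for hspa8 and 4.52-fold for hsp90ab1.

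Set against each other, the inducible genes had a median log2 fold of 3.01 and the constitutive pair a mean of -0.05, a difference of 3.06 on the log2 scale or 8.32-fold. This difference was not tested, because no value per replicate was at hand. The lowest limit of any inducible gene's implied 95% interval was 1.21, for hsp70l, and the highest limit of the constitutive pair was 1.09, for hspa8. The intervals of the 4 inducible genes therefore all lay above those of both constitutive genes, by a narrow margin for hsp70l. As the genes were chosen with earlier results known and the intervals may lack the spread between replicates, this is a description and not a test. hsp70l, the inducible gene with the smallest fold, still had a ratio 5.08 times that of hspa8.

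**Figure D1:**
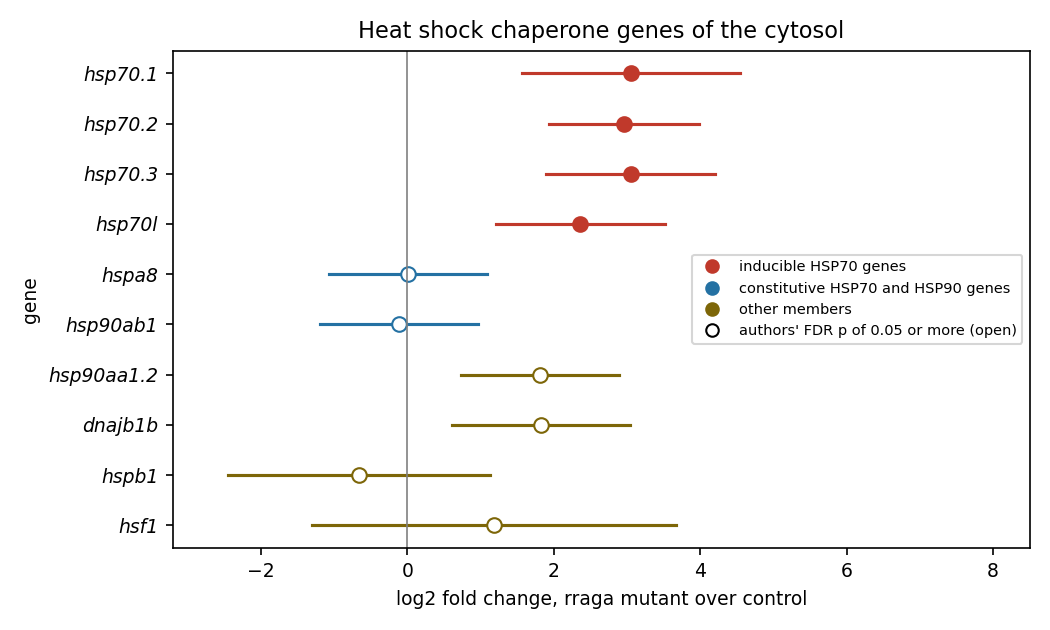
Log2 fold change of the 10 members (x axis, rraga mutant over control; y axis, gene), as points with bars for the implied 95% interval; filled points had an authors' FDR p under 0.05 and open points did not. The 4 inducible HSP70 genes sit between 2.36 and 3.06, hspa8 and hsp90ab1 lie at 0.02 and -0.11, and the bars of hspb1 and hsf1 cross 0.

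None of the other members passed the threshold. Of these, hsp90aa1.2 and dnajb1b had log2 folds between those of the inducible and the constitutive genes. hsp90aa1.2, an HSP90 alpha gene (ENSDARG00000024746; chromosome 20, 54177625 to 54206912, minus strand), had a log2 fold of 1.81, a level of 44.3, p = 0.00103 and an FDR p of 0.218 in the authors' deposited table. dnajb1b, an HSP40 gene whose product works with HSP70 (ENSDARG00000041394; chromosome 1, 55068227 to 55072557, minus strand), had a log2 fold of 1.83, a level of 31.2, p = 0.00315 and an FDR p of 0.381 in the authors' deposited table. Their implied 95% intervals, from 0.73 to 2.89 and from 0.62 to 3.05, did not reach 0 but overlapped those of both the inducible and the constitutive genes. hspb1, which encodes the small heat shock protein HSP27 (ENSDARG00000041065; chromosome 5, 3238284 to 3255083, minus strand), had a level of 14.6 and a log2 fold of -0.66 with p = 0.470 in the authors' deposited table. The transcription factor gene hsf1 (ENSDARG00000008818; chromosome 19, 3115552 to 3141370, plus strand) had a level of only 2.47 and a log2 fold of 1.19 with p = 0.350 in the authors' deposited table. HSF1 is regulated mainly after translation, so its transcript level is no measure of its activity.

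The size of change that could pass differed between members. At its implied error, hspa8 would have needed 4.51-fold, hsp90aa1.2 4.52-fold, dnajb1b 5.45-fold, hspb1 12.2-fold and hsf1 32.1-fold to be called. The values of 3.51-fold for hsp90aa1.2 and 3.56-fold for dnajb1b in the authors' deposited table lay below these limits, so for these genes a missed call does not show that the transcript was the same in both genotypes.

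**Figure D2:**
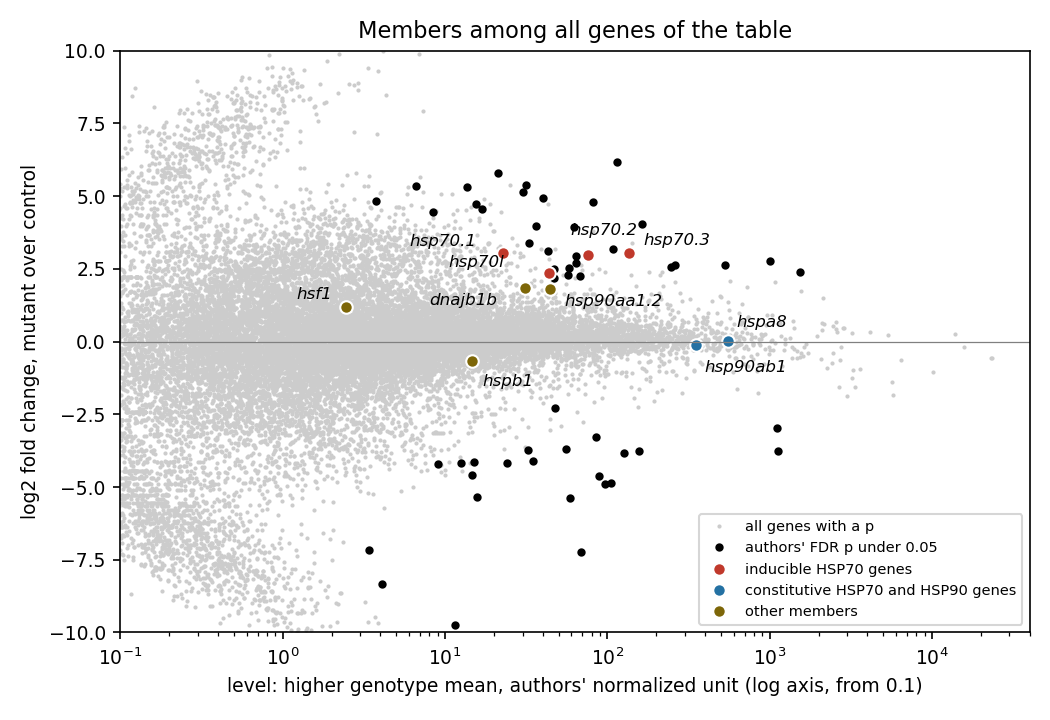
Log2 fold change (y axis, mutant over control, from -10 to 10) against level (x axis, log scale from 0.1, the authors' normalized unit) for genes with a p, with called genes in black and the members in colour. Genes outside these axes are not drawn. The inducible genes, at levels of 22.8 to 135.2, lie among the called rises, whereas hspa8 and hsp90ab1 lie in the narrow band around 0 at levels of 550.3 and 353.1.

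Several members have a near copy or an overlapping gene in the table. hsp90aa1.1, the HSP90 alpha gene known from zebrafish for its part in muscle development, overlaps hsp90aa1.2 by 14042 bases on the same strand. The authors' deposited table gave hsp90aa1.1 a log2 fold of 0.05 with a level of 20.0, which is 1.76 below that of hsp90aa1.2, with an implied 95% interval from -1.60 to 1.70. Skeletal muscle markers had a median log2 fold of -0.59 over 19 genes in the authors' deposited table, with none called and with actc1b and pvalb2 at 0.32 and -0.86, and their part in this difference was not tested. dnajb1a, the paralog of dnajb1b, had a log2 fold of 0.49, its level being 7.29, in the authors' deposited table. dnajb1b itself overlaps the adhesion receptor gene adgre10 by 1126 bases on the opposite strand. adgre10 had a log2 fold of 2.38, its level being 6.39, in the authors' deposited table, and as no source used here states that strand was counted, reads from the shared bases cannot be told apart. The same holds for hsp90ab1, which lies with all its 14083 bases inside the span of slc35b2, a sulfate donor (PAPS) transporter gene on the opposite strand with a log2 fold of 1.45 and a level of 9.72 by the authors' deposited table.

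A further HSP70 gene, hspa1b, is listed in the table as si:ch211-199o1.2 and was matched through its RefSeq synonym. It was lower in the mutant, with a log2 fold of -5.51, a level of only 2.03, p = 0.0243 and an FDR p of 0.644 in the authors' deposited table. Its implied error was 2.45 on the log2 scale. hspa12b, a distant HSP70 relative known from endothelial cells, was also lower, with a log2 fold of -6.92, a level of 0.703 and an FDR p of 0.569 in the authors' deposited table. Both genes were singled out after their values were seen, and neither passed the threshold.

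No neighbour of the inducible genes was called, but with 0.221% of all genes called, so few neighbours were unlikely to hold a call. Within 100 kb of the chromosome 3 genes, 13 other genes had a p, and their median log2 fold was -0.11 in the authors' deposited table. Where 4.43% of all genes were higher and 5.24% lower at an unadjusted p under 0.05, 2 of these 13 were higher, hmox1a and gdpd3a. The 7 genes with a level of 10 or more ranged from -0.30 to 1.91, and the highest was hmox1a, the stress-inducible haem oxygenase gene, 95.2 kb away with p = 0.0326 in the authors' deposited table. atp2a1, a muscle calcium pump gene whose annotated span contains all 3 copies, had a log2 fold of 0.16, its level being 13.9, in the authors' deposited table. It lies on the strand of hsp70.3 and opposite to hsp70.1 and hsp70.2. How reads from shared bases were assigned is not given in the sources used here. Around hsp70l, 6 other genes had a p, and they ranged from -2.53 to 0.78 in the authors' deposited table.

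**Figure D3:**
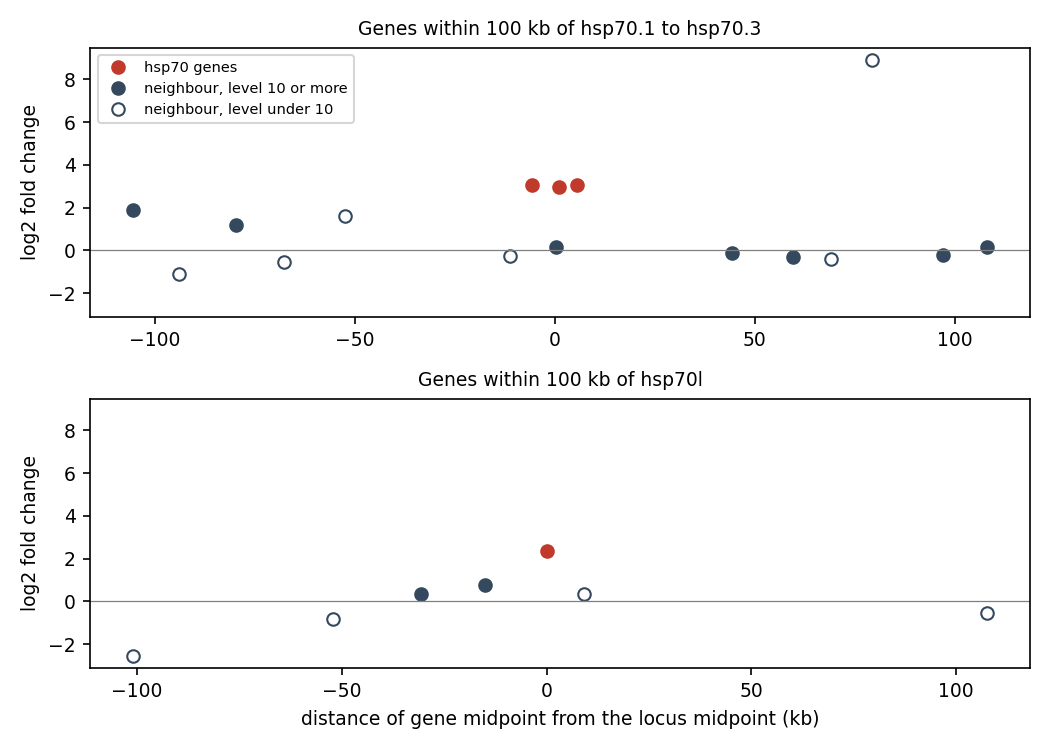
Log2 fold change (y axis, mutant over control) of genes within 100 kb of the chromosome 3 hsp70 genes (upper panel) and of hsp70l (lower panel) against the distance of the gene's midpoint from that of the locus (x axis, kb), with filled points for a level of 10 or more. The hsp70 genes stand at 2.36 to 3.06, while the neighbours of level 10 or more reach 1.91 at most; gdpd3a, at 8.90, has a level of only 1.15.

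The wider chaperone network was read from 10 lists of other chaperone and stress genes. Of 149 measured genes on these lists 1 was called, sqstm1, the autophagy receptor gene, with a log2 fold of 2.63 in the authors' deposited table, and 148 were not, against 0.221% called among all genes. At the authors' unadjusted p under 0.05, 9 of the 149 were higher and 2 lower. Of these 9, 5 were among the 19 genes of the proteotoxic and oxidative stress list. The shares over all lists, 6.04% and 1.34%, stand beside 4.43% higher and 5.24% lower among all genes. Among the 5792 genes of level 10 or more, 344 were higher and 157 lower at that p. The pooled share of rises is thus near the background, while the rises are unevenly spread over the lists. Regardless of p, 51.0% of all genes were higher, and 62.3% of those of level 10 or more, and the counts of higher genes below are to be read against these shares. The median log2 fold was 0.25, beside 0.02 over all genes and 0.15 over genes of level 10 or more.

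HSP70 and HSP110 relatives of the cytosol had a median of 0.33 over 8 genes, with 4 higher, 4 lower and none called. Those of highest level were hspa4b, an HSP110-type exchange factor gene, and hspa14, an HSP70 gene whose mammalian product is associated with ribosomes, with log2 folds of -0.07 and -0.37, respectively, in the authors' deposited table. HSP90 and its co-chaperones had a median of 0.24 over 16 genes, 14 of them higher and none called. The p23 co-chaperone genes ptges3b and ptges3a had log2 folds of 0.23 and 0.05, respectively, in the authors' deposited table. J-domain proteins, exchange factors and other partners of HSP70 had a median of 0.33 over 31 genes, 21 of them higher and none called. hsbp1b, whose mammalian counterpart binds HSF1, and dnaja2, a J-domain gene, had log2 folds of 0.14 and 0.38, respectively, in the authors' deposited table. At an unadjusted p under 0.05, 1 gene of each of these lists was higher, where 4.43% of all genes were higher and 5.24% lower. These were hspa4a (log2 fold 1.04, level 20.8), ahsa1b (1.31, level 55.3) and dnajb2 (1.92, level 8.44) by the authors' deposited table. They were picked with their values known. Lower at that p were 2 HSP70 relatives, hspa1b and hspa12b, and no HSP90 or HSP70 co-chaperone gene.

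The TRiC/CCT chaperonin, the ring that folds actin and tubulin, was measured with all 8 subunit genes. Their log2 folds ran from -0.14 to 0.40 with a median of 0.20 in the authors' deposited table, and none was called, cct4 and cct5 having 0.15 and -0.07. Mitochondrial chaperones had a median of 0.22 over 11 genes, 9 of them higher and none called, with hspe1 and hspd1, the genes of the mitochondrial chaperonin, at 0.22 and 0.40 in the authors' deposited table. Chaperones of the endoplasmic reticulum had a median of -0.23 over 22 genes, 16 of them lower and none called, with the BiP gene hspa5 at -0.15 and the disulfide isomerase gene pdia3 at -0.27 in the authors' deposited table. Of the other heat shock factors, hsf2 had a log2 fold of 0.17, its level being 7.85, in the authors' deposited table, and hsf4 was listed at 0.

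Small heat shock proteins other than hspb1 were measured at low levels, from 0.0610 to 12.2, with a median of 1.48 over 11 genes, 8 of them higher and none called. Those of highest level were hspb8, a partner of the BAG3 co-chaperone, and hspb11, with log2 folds of 0.21 and 2.13, respectively, in the authors' deposited table. RefSeq gives hspb11 as an older name of hspb9l, so the identity of the latter row is uncertain. The lens crystallin gene cryaa had the highest value of this list, 7.10, in the authors' deposited table and a level of 0.365. Lens markers, cryaa among them, had 15 of 17 genes higher and none called, with a median of 3.54 in the authors' deposited table. At an unadjusted p under 0.05, 7 of them were higher and none lower, where 4.43% of all genes were higher. The lens genes of highest level, crybb1 and crygm2d13, had 0.64 and 7.93 by the authors' deposited table. Lens gene levels ran from 0.108 to 34.6 with a sum of 79.6, and another 3, crygm3, lim2.1 and gja8b, were listed at 0. The part of lens RNA in the values of hsp70l and the small heat shock genes was not tested.

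Genes known to respond to cell dissociation were measured beside the chaperones, since tissue is broken up before sorting. Of 22 immediate early genes 20 were higher and none was called, with a median of 0.39 and a highest value of 0.97 in the authors' deposited table. junbb and fosab, those of highest level, had log2 folds of 0.45 and 0.42 with levels of 2863 and 2579, respectively, in the authors' deposited table. The part of sample handling in the HSP70 values was not tested. Among 19 genes of proteotoxic and oxidative stress 18 were higher, with a median of 0.58 in the authors' deposited table, and sqstm1 was the 1 called. The thioredoxin gene txn and the CHOP gene ddit3, chosen after their values were seen, had log2 folds of 1.48 and 1.19 with FDR p-values of 0.534 and 0.609 in the authors' deposited table.

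**Figure D4:**
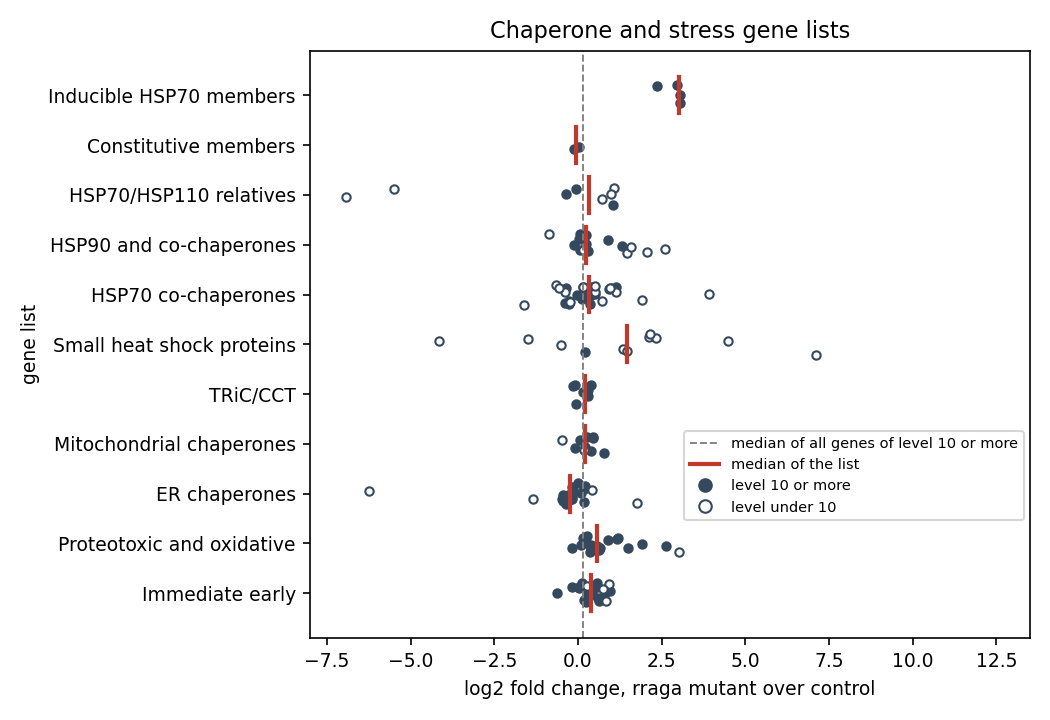
Log2 fold change (x axis, mutant over control) of each measured gene in the members' groups and the chaperone and stress lists (y axis), with filled points for a level of 10 or more, open points below it, and a red bar at the list's median. The inducible HSP70 genes have a median of 3.01, and the lists of other chaperones have medians between -0.23 and 0.33 except the weakly expressed small heat shock proteins at 1.48.

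With a single comparison, likeness to the inducible genes can be measured only by the size of the fold. The 4 other called genes closest to their median of 3.01 were slc16a1a, a monocarboxylate transporter gene (2.94), rdh14a, a retinol dehydrogenase gene (3.13), hapln2, a link protein gene (3.17), and zgc:109934 (2.76), in the authors' deposited table.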

How the data were processed

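RNA of sorted Cldnk:GFP cells was sequenced, and reads were placed on GRCz11 per the submitters' processing notes. The labels say that the R1 and R2 files of a record are not from the same sample. Which aligner, counting tool, normalization and test were used is not given in the sources used here. The authors deposited a normalized expression signal (the higher genotype mean), a log2 fold change, a signed fold score and p-values for 34326 genes. Of these, 8569 have a level of 0 and no fold or p. Direction rests on the table's title. Depth is unknown, so no counting interval was made. Other computations used Python 3.11.15, pandas 2.3.3 and scipy 1.17.1. The error and adjustment code was run on data simulated with normal errors. That run checks the arithmetic only, not whether the implied error suits the authors' test.

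The members and lists were chosen with earlier results of these data known. Of 306 listed genes 286 were found, 6 of them by RefSeq synonym (GRCz12tu). Named genes are the 10 members, in each other list the called genes (at most 4) or else the 2 of highest level, and the 4 called genes nearest in fold to the inducible HSP70 median. Any other gene named is a near copy, a neighbour, a further marker or a gene at 0, or is marked as picked with its value known. Alternatives changed the threshold, the genes adjusted over, the centring and the genes contrasted. Protein and promoter sequences were not used here.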

Additional observations from a re-analysis of the deposited data

How the results depend on the processing

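The number of members called was 4 under 4 of the 6 alternative rules. Some adjusted over genes with a p, of level 1 or more or of level 10 or more. The last asked for a log2 fold of at least 1. Adjusting over fewer genes lowered the adjusted p of all 4 called members, and the fold rule dropped none of the 57 called genes. None of these rules was thus harder to pass for the 4 called members, and the unchanged count is no sign of robustness. Adjusting over level 10 or more left 9 members tested, without hsf1. With 0.01 as the limit on the authors' FDR p, 2 members were called, and by their Bonferroni p 2 as well. In both cases hsp70.2 and hsp70.3 stayed called and hsp70.1 and hsp70l did not. Both of these rules are stricter by construction. The inducible minus constitutive difference ran from 2.76, with the chromosome 3 copies counted as 1 gene, to 3.12, against hsp90ab1 alone. It was 3.01 with hspa1b added, an alternative chosen after seeing the data. Because the inducible genes enter by their median, 1 added gene could move it little, although hspa1b itself had a log2 fold of -5.51. Centring on genes of level 10 or more, whose median log2 fold was 0.15, put hspa8 at -0.14, and centring on 76 ribosomal protein genes, with a median of -0.14, put hsp90ab1 at 0.026, so neither gene has a settled direction. The other 8 members kept theirs under both centrings. The median of the HSP70 and HSP110 relatives was -0.07 over the 3 genes of level 10 or more, and that of the small heat shock proteins rests on genes of low level, with 1 of 11 at 10 or more. No paired analysis was possible because the table holds no value per replicate, and leaving out a replicate was not possible for the same reason.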

Other observations

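Names of the HSP70 copies are not used uniformly. The identifiers of 8 of the 10 members carry the same symbol, ignoring case, in the reference name table. The identifier of hsp70.2 is named HSPA2 there and that of hsp90aa1.2 is named HSP90AA1. The older name hsp70-4 is listed by RefSeq for 3 of the genes, hsp70.1, hsp70.3 and hsp70l.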
